A study of Homo sapiens and Mus musculus with 22 samples.

Results

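Interferon-stimulated genes are the genes that cells switch on in response to interferons, and 45 of them were followed here in small cell lung cancer lines and in subpopulations with low and high MHC class I. The members were taken by gene symbol from a list, with no measured value in the rule. All 45 symbols had a row among the 25435 genes of the table of H69 and H69M cells and among the 20113 genes of the table of H69EZ cells. In the mouse table of 24047 genes, 40 members had a row under the symbol with only its first letter capital. IFIT5, IFI6, HERC5, SAMD9 and GBP1 had none under that spelling and were not analysed there. After the filter on low counts 44 members were tested in the H69 table (EPSTI1 was not), 45 in the H69EZ table and 39 in the mouse table (Ifi44l was not).

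RNA from cell lines was sequenced after exome capture, in 22 libraries of 8 groups. NCI_H69 (H69) is a human small cell lung cancer line whose MHC class I label is low/neg, and it has 3 libraries. H69M cells, labelled MHC class I high, were derived from H69 by an earlier study's method, and 3 libraries each came from unsorted H69M, from its sorted PD-L1 low/neg fraction and from its sorted PD-L1 high fraction. H69EZ cells descend from H69 cells that received an EZH2 inhibitor for 6 days, were then kept drug-free and were enriched for attached cells. Their sorted HLA-ABC low/neg and high fractions have 2 libraries each. The mouse line 631RPP (RPP), labelled MHC class I low or negative, and 631RPP-A (RPP-A), labelled high and selected from RPP for growth attached to plastic, have 3 libraries each. The mouse count columns are named RPP and RPPM, and RPPM was taken as RPP-A because it is the only other name in the table that the labels give for both lines, so that this assignment is inferred. H69M, its fractions and H69EZ thus all go back to the same H69 line, and H69EZ HLA low and HLA high cells were both exposed to the inhibitor. Nothing in the labels says that replicates came from separate cultures, so p-values describe no more than how far these libraries vary, and that variation may be technical.

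Interferons bind receptors at the cell surface, and the Janus kinases JAK1, JAK2 and TYK2 then phosphorylate STAT proteins. STAT proteins and IRF9 form the factor ISGF3, which binds the interferon-stimulated response element in the promoters of target genes. The products act mainly against viruses: they bind foreign RNA, block entry at membranes, tag proteins with ISG15 or degrade nucleic acids, and some, such as USP18, damp the pathway. Tumour cells can carry many of these transcripts without added interferon, and MHC class I genes are themselves induced by interferon.

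Promoter sequences were searched for the response element. The RefSeq promoter table (build GRCh38.p14, another build than the hg19 of the count tables) holds 55 windows for 39 of the 45 members, each from 250 bases before to 50 after a start, and windows of the same gene can overlap. It has no entry for IFIT2, IFITM2, MX2, USP18, UBA7 and GBP2. The core of the response element, searched on both strands as GAAA, any 2 bases and GAAA again, was in 29 of the 39 genes (74.4%) and in 34 of the 55 windows (61.8%), against 1255 of all 35116 windows (3.57%). TTCNNNGAA, the core of the gamma-activated sequence used by interferon gamma, which reads the same on both strands, was in 10 of the 39 genes (25.6%) and in 12 windows (21.8%), against 2689 of all windows (7.66%). Counted by gene, the first pattern was in 1195 of all 27305 genes (4.38%) and the second in 2560 (9.38%). Both patterns were in 8 genes of the list and neither in 8, and matches of the different patterns overlapped in 5 genes. The 250 bases before the start are shown for 6 members that rose in both human sorts below and carry the response element core more than once, with each match in capitals, and for CMPK2, whose 3 windows hold none. They lie at chr1:1013247-1013496 (ISG15), chr10:89392373-89392622 (IFIT1), chr10:89327747-89327996 (IFIT3), chr4:88456869-88457118 (HERC5), chr14:94110486-94110735 (IFI27) and chr1:78620198-78620447 (IFI44L) on the plus strand and at chr2:6866636-6866885 (CMPK2) on the minus strand.
ISG15: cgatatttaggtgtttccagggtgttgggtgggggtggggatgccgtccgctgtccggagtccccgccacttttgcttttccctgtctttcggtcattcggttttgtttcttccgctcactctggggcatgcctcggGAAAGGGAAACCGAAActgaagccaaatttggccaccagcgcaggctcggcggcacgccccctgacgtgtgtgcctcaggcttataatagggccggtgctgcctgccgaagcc
IFIT1: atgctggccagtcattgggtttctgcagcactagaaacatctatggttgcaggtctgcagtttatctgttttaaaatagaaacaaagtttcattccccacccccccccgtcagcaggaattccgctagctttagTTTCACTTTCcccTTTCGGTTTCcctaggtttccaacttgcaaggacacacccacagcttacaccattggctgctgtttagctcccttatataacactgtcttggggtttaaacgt
IFIT3: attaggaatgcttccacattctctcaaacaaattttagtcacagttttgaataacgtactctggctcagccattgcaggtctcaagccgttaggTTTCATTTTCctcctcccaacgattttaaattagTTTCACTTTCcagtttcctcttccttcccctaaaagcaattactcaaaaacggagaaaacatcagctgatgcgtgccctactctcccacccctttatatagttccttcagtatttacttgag
HERC5: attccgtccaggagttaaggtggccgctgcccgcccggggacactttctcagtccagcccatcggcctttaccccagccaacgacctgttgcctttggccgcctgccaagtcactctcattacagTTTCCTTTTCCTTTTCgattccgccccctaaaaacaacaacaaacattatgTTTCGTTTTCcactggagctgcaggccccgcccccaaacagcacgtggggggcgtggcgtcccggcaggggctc
IFI27: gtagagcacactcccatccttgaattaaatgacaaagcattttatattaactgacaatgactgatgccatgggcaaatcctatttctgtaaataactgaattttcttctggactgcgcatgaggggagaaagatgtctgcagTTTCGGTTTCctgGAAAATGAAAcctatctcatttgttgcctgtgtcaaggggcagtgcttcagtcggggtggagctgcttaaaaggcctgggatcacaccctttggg
IFI44L: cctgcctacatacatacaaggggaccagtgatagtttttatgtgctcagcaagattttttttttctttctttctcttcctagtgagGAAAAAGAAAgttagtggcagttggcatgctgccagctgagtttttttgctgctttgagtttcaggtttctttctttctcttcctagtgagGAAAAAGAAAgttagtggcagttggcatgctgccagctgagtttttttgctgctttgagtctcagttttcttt
CMPK2: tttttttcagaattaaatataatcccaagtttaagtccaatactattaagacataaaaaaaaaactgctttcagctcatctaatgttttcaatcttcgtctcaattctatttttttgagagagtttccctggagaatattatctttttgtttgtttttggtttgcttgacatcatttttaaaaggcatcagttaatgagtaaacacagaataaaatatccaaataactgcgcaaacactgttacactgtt
The 2 matches of ISG15 share bases, as do 2 of the 3 in HERC5, and those of IFI44L sit in a stretch of letters that is repeated within the window. The core was absent from the windows of IFI35, HERC6, SAMD9L, XAF1, CMPK2, UBE2L6, TRIM25, SP100, SP110 and ADAR. A match is a run of letters and no measurement of binding, and its absence says only that these letters are not in this window.

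Levels are given as CPM, read counts scaled to each library's size after TMM normalisation. They are not divided by gene length, so they are compared between libraries for the same gene and never between genes, and only within a table, since the 3 tables were normalised separately. Library totals ran from 12814594 to 26834561 counts in the H69 table, from 40568796 to 52458228 in the H69EZ table and from 10817795 to 19973785 in the mouse table. A member rose or fell where edgeR's quasi-likelihood F-test gave a Benjamini-Hochberg adjusted p under 0.05 over all genes tested in its table, and fold changes are on the log2 scale with their SE. In RNA from bulk cells, fewer cells of a type and less RNA per cell cannot be told apart. PD-L1 low replicate 3 stood apart for these genes: it was the highest of its group in 30 of the 45 members and at least 2-fold above both other libraries in 14, so results that rest on it are given with and without it. Among the mouse libraries the RPP library in column EHK_RPP4 and the RPP-A library in column RPPM3 differed most from their groups over all genes. RPPM1 and RPPM2 differed by little more than counting error (chi-square per degree of freedom 1.33, against 34.3 and 37.2 with RPPM3), and with them summed as 1 library 34 members rose in the mouse in place of 35.

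Most interferon-stimulated genes rose in PD-L1 high cells over PD-L1 low, in HLA high over HLA low, in RPP-A over RPP and in H69M over H69. Between the sorted fractions of H69M (the PD-L1 sort), 44 of the 44 tested members rose in PD-L1 high cells, against 39.0% of all genes tested, with a median log2 fold change of 5.08 over the members and -0.0031 over all genes. Between the H69EZ fractions (the HLA sort) 43 of 45 rose in HLA high cells, against 41.1% of all genes. USP18 fell, where 40.2% of all genes did, and EPSTI1 passed no threshold, and the median was 5.18. In the mouse cells 35 of 39 rose in RPP-A, against 37.6% of all genes, 3 fell, where 40.6% of all genes did, and the median was 2.99 beside -0.04 over all genes. H69M compared with H69 gave 39 of 44 higher, against 35.9% of all genes, 3 lower, against 36.6%, and a median of 3.50. The same shares of all genes stand behind the counts by role below. PD-L1 high and low cells share no library with the HLA sort or the mouse cells, and in those 3 comparisons side by side 43 members were higher in both sorts and 35 in both the PD-L1 sort and the mouse cells. The share of all genes higher in both comparisons of a pair is not given here, so these joint counts are a description only.

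**Figure D1:**
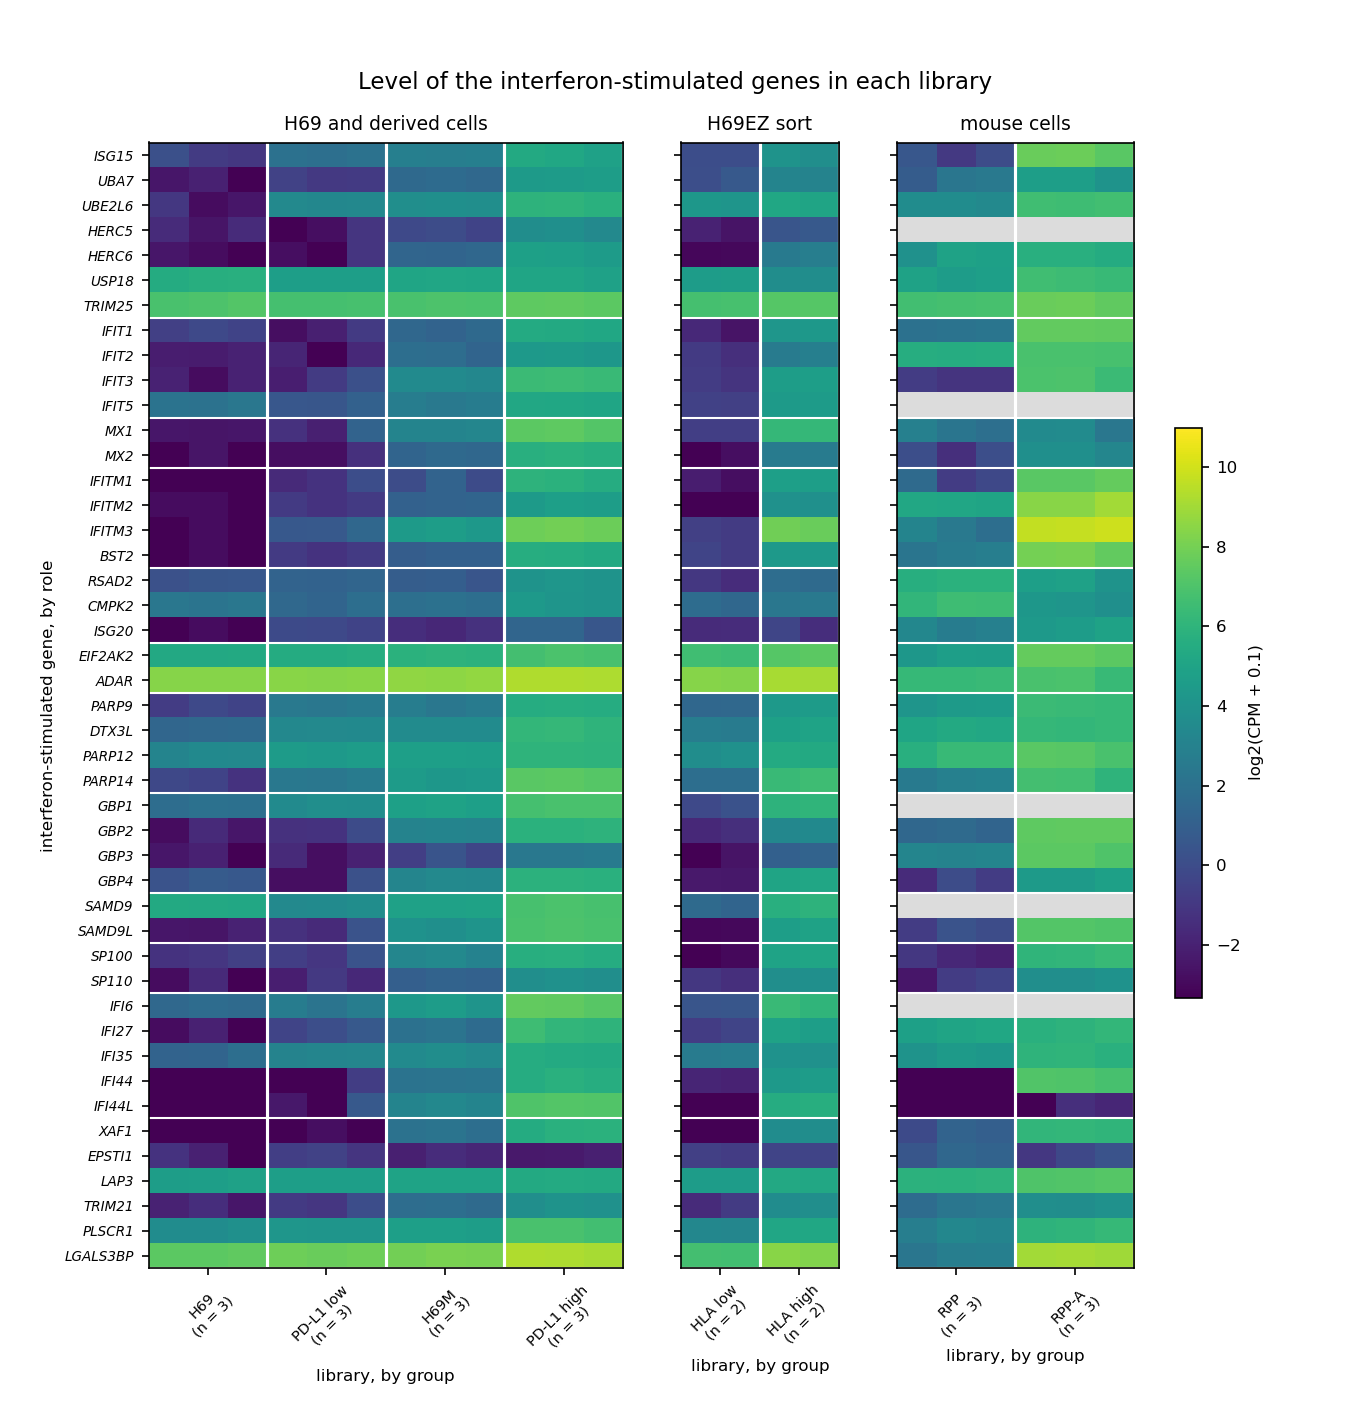
Heat map of log2(CPM + 0.1) for each interferon-stimulated gene (rows, grouped by role) in each of the 22 libraries (columns, by group), drawn separately for the H69, H69EZ and mouse tables, with grey where the mouse table has no such symbol. The PD-L1 high, HLA high and RPP-A columns are lighter for most genes, while the USP18, TRIM25, ADAR and LAP3 rows change little in colour across the human groups. On this scale the fall of USP18 from 24.4 CPM in HLA low to 12.8 in HLA high is a small step.

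**Figure D2:**
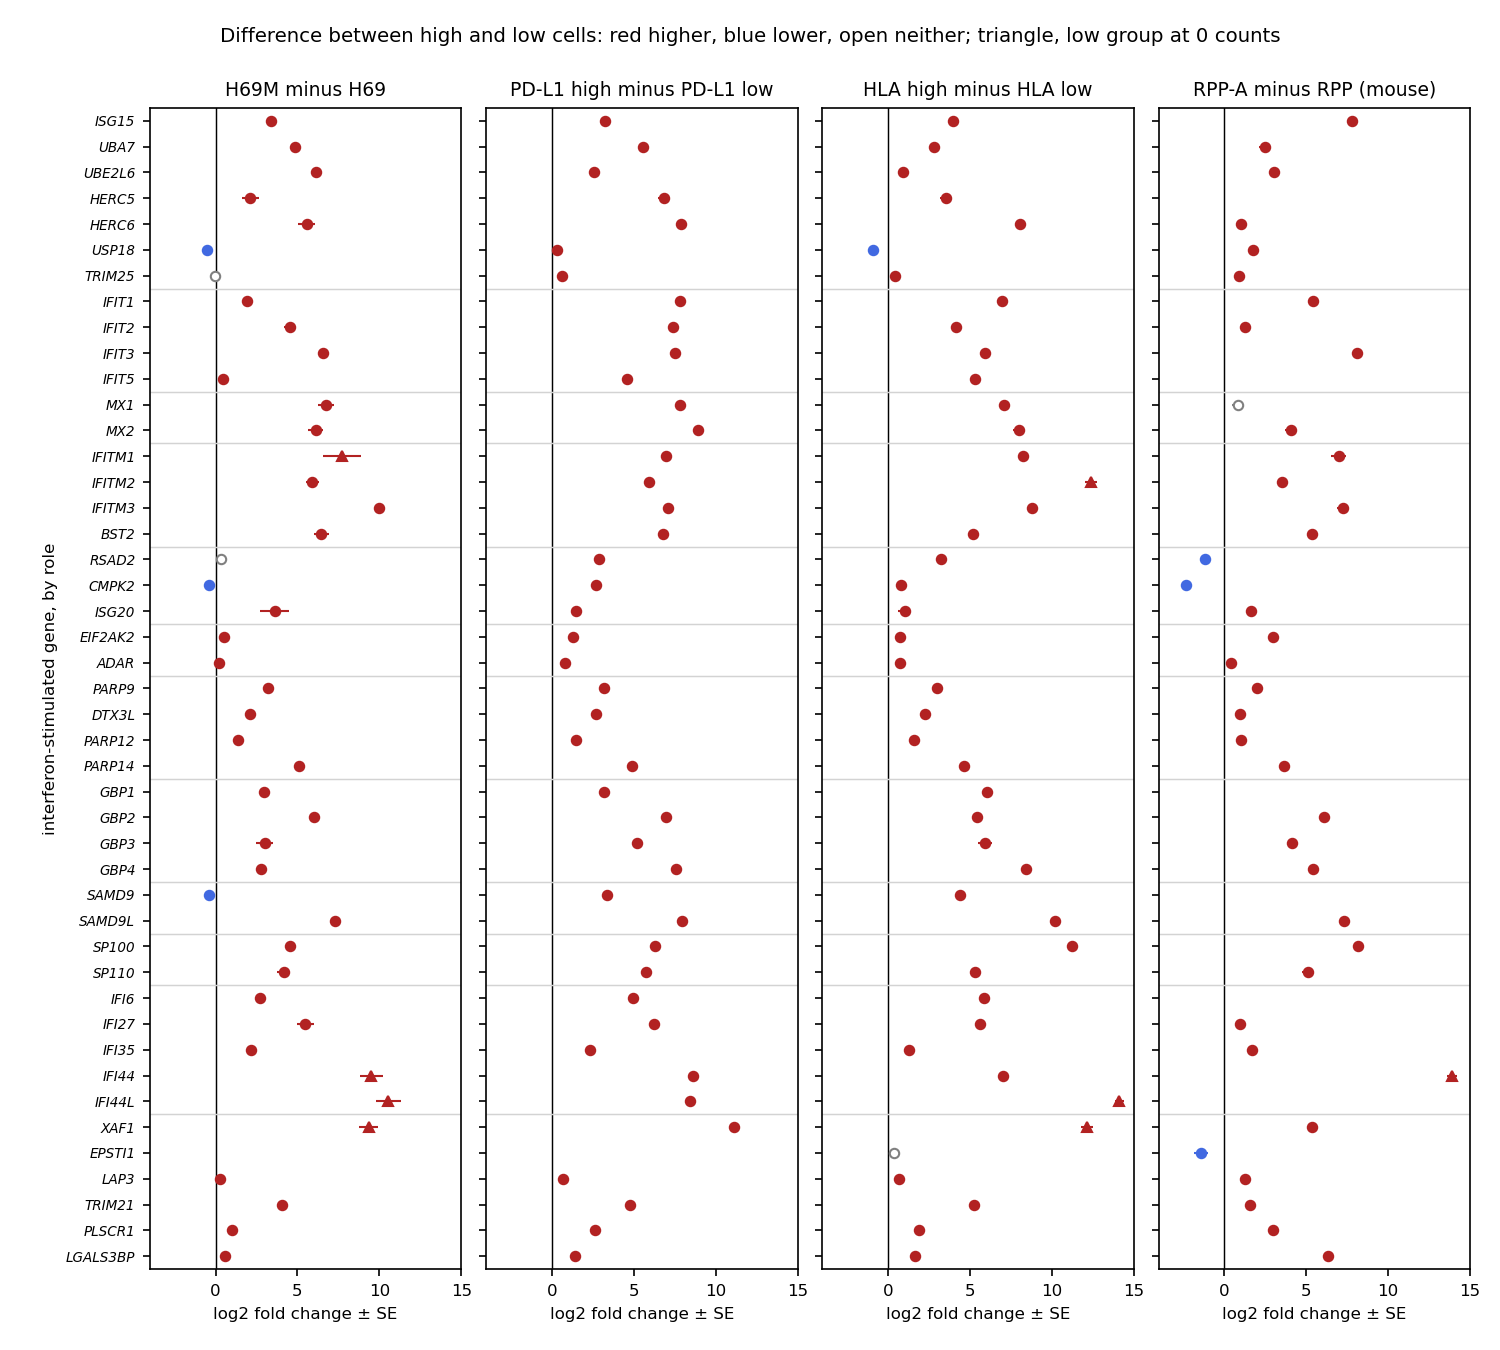
Log2 fold change ± SE of each tested member (vertical axis, by role) in 4 comparisons, red where higher, blue where lower, open where neither, and a triangle where the low group had 0 counts and the fitted value is no bound. The PD-L1 panel holds no blue or open point, and the blue points of the other panels are USP18, CMPK2 and SAMD9 in H69M, USP18 between the HLA fractions, and Cmpk2, Rsad2 and Epsti1 in the mouse.

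ISG15 and the enzymes that join it to other proteins were higher in the high cells of each comparison, apart from USP18 in 2 of them and TRIM25 in H69M. Of the 7 genes of this machinery, 7 rose in the PD-L1 sort, 6 between the HLA fractions and 5 in H69M against H69, and in the mouse 6 of 6 rose. ISG15, the ubiquitin-like protein that is conjugated, stood at 1.05, 0.453 and 0.404 CPM in the 3 H69 libraries, 3.900, 3.67 and 4.19 in PD-L1 low, 7.06, 6.77 and 7.27 in H69M and 41.6, 37.3 and 29.5 in PD-L1 high. HLA low cells held 0.929 and 0.951 and HLA high cells 16.5 and 13.2, and the mouse gene was at 1.39, 0.416 and 0.914 in RPP and 214, 217 and 162 in RPP-A. The low and high groups did not overlap in any of these pairs, and H69M lay between PD-L1 low and PD-L1 high. The log2 fold change was 3.22 ± 0.14 in the PD-L1 sort, 3.99 ± 0.14 between the HLA fractions, 7.79 ± 0.30 in the mouse and 3.37 ± 0.24 in H69M against H69, with adjusted p of at most 3.6e-07 (edgeR quasi-likelihood). The last value was 3.99 without H69 replicate 1.

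UBA7, the enzyme that activates ISG15, was at 0.0805, 0.151 and 0 CPM in H69, 0.6205, 0.419 and 0.434 in PD-L1 low, 2.83, 3.09 and 2.79 in H69M and 22.7, 23.6 and 25.2 in PD-L1 high. That was a rise of 5.55 ± 0.16 between the fractions (edgeR adjusted p = 3.37e-17). It went from 0.988 and 1.49 to 8.73 and 8.37 between the HLA fractions and from 1.71, 4.92 and 5.41 to 26.4, 26.00 and 16.4 in the mouse. UBE2L6, the conjugating enzyme that takes ISG15 over, was at 0.402, 0.0378 and 0.0807 CPM in H69, 10.4, 9.72 and 10.3 in PD-L1 low, 13.2, 13.8 and 13.2 in H69M and 62.2, 63.03 and 54.02 in PD-L1 high. All 9 H69M-derived libraries held more of it than any H69 library, and the PD-L1 low fraction rose over H69 by 5.71 ± 0.26 (edgeR adjusted p = 1.01e-13), a value that became 7.45 without H69 replicate 1, the H69 library with the most, and 5.07 without H69 replicate 2. It went from 18.9 and 17.9 to 36.9 and 32.4 between the HLA fractions and in the mouse from 12.2, 12.6 and 10.5 to 95.6, 94.6 and 99.6. HERC5, the main human ligase for ISG15, was near 0 in PD-L1 low (0, 0.0465 and 0.362 CPM) and at 13.1, 13.7 and 10.5 in PD-L1 high, beside 0.241, 0.0755 and 0.242 in H69 and 0.809, 0.896 and 0.6503 in H69M. It rose by 6.83 ± 0.33 in the PD-L1 sort, by 6.11 without PD-L1 low replicate 1 and by 8.77 without replicate 3. In the HLA sort it went from 0.158 and 0.0696 to 1.26 and 1.51 CPM (3.52 ± 0.37, or 4.25 without HLA low replicate 1). HERC6, its relative, which serves as the ISG15 ligase in the mouse, was at 15.3, 30.8 and 28.3 CPM in RPP and 52.4, 52.2 and 45.5 in RPP-A. In H69 its 3 libraries held 0.0805, 0.0378 and 0 CPM, and H69M exceeded them by 53.03-fold (95% counting interval 17.8 to 259.7), with a fitted log2 value of 5.55, or 6.29 without H69 replicate 1.

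USP18, the protease that takes ISG15 off again and restrains the receptor IFNAR2, did not follow the other members in the human cells. It was highest in parental H69, at 45.4, 50.3 and 53.3 CPM, and stood at 34.8, 35.1 and 33.7 in H69M, 25.8, 26.4 and 26.2 in PD-L1 low and 33.97, 34.1 and 28.98 in PD-L1 high. H69M fell by 0.52 on the log2 scale against H69 (SE 0.07, edgeR adjusted p = 1.4e-06), while PD-L1 high exceeded PD-L1 low by 0.31 ± 0.08 (edgeR adjusted p = 0.000809), the smallest rise of any member there. In the HLA sort it went the other way, from 23.7 and 25.2 CPM in HLA low to 12.9 and 12.7 in HLA high, a change of -0.93 ± 0.09 (edgeR adjusted p = 1.86e-26). The mouse gene rose, from 30.7, 23.8 and 26.6 to 99.3, 90.5 and 81.2 CPM, by 1.74 ± 0.13 (edgeR adjusted p = 7.95e-06). Groups did not overlap in any of these 4 comparisons. The human gene has a near-identical copy, USP41, and how reads shared between such copies were counted is not given in the sources used here. The human counts of USP18 are uncertain to that extent. TRIM25, a ubiquitin ligase that activates the RNA sensor RIG-I, was at 120.2, 126 and 141 CPM in H69, 111, 109 and 114 in PD-L1 low, 120.3, 126 and 124 in H69M and 176, 179.6 and 167 in PD-L1 high. H69 and H69M overlapped (-0.06 ± 0.06, adjusted p = 0.356, edgeR). It rose by 0.65 ± 0.06 in the PD-L1 sort, by 0.42 ± 0.06 between the HLA fractions (111 and 113 to 149.7 and 149 CPM), the smallest rise there, and by 0.93 ± 0.11 in the mouse (100.2, 108 and 112 to 212, 217 and 181 CPM).

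The IFIT genes, whose products bind viral RNA that lacks the modifications of host messenger RNA, rose together: 4 of 4 in the PD-L1 sort, the HLA sort and H69M, and 3 of 3 in the mouse. IFIT1 was at 0.563, 0.793 and 0.646 CPM in H69, 0.0443, 0.1395 and 0.434 in PD-L1 low, 2.61, 2.24 and 2.91 in H69M and 42.9, 41.03 and 37.4 in PD-L1 high. PD-L1 low cells held less IFIT1 than H69 in every library, so that the order of the groups was PD-L1 low, H69, H69M and PD-L1 high. IFIT1 rose by 7.82 ± 0.21 in the PD-L1 sort and was -1.92 ± 0.48 in PD-L1 low against H69 (edgeR adjusted p = 0.00115). Without PD-L1 low replicate 3, the library with the most IFIT1 of that fraction, these values were 8.71 and -2.81. In the HLA sort it went from 0.217 and 0.0696 to 18.4 and 19.4 CPM (6.96 ± 0.19, or 8.03 without HLA low replicate 1) and in the mouse from 3.996, 4.22 and 4.71 to 186, 189.6 and 181 (5.42 ± 0.11).

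IFIT3, the partner that stabilises IFIT1, was at 0.161, 0.0378 and 0.161 CPM in H69, 0.133, 0.465 and 1.01 in PD-L1 low, 11.4, 11.3 and 9.98 in H69M and 87.4, 89.6 and 83.4 in PD-L1 high. It was at 0.494 and 0.348 in HLA low and 25.3 and 26.2 in HLA high, and at 0.489, 0.346 and 0.352 in RPP and 122, 127 and 85.2 in RPP-A. Each high group lay far above its low group, and the PD-L1 low libraries spread widely and overlapped H69. The rise was 7.52 ± 0.18 in the PD-L1 sort, 5.90 ± 0.15 between the HLA fractions and 8.12 ± 0.27 in the mouse, with adjusted p of at most 2.12e-07 (edgeR), and the first was 8.17 without PD-L1 low replicate 3. IFIT2, which also binds RNA and is tied to cell death, was at 0.121, 0.113 and 0.161 CPM in H69, 0.177, 0 and 0.217 in PD-L1 low, 3.51, 3.38 and 2.37 in H69M and 21.4, 22.5 and 19.3 in PD-L1 high. The mouse gene was already at 47.8, 46.9 and 47.96 CPM in RPP and went to 118, 118 and 115, a rise of 1.30 ± 0.08, while the HLA sort gave 0.435 and 0.278 and 6.21 and 7.09. IFIT5, which binds RNA with free phosphate ends, rose by 4.57 ± 0.13 in the PD-L1 sort and 5.31 ± 0.15 between the HLA fractions, and by 0.48 ± 0.13 in H69M against H69 (4.35, 4.04 and 5.08 against 6.61, 5.47 and 6.27 CPM). Its PD-L1 low libraries, at 1.37, 1.302 and 2.097 CPM, lay under all 3 H69 libraries (-1.52 ± 0.18, edgeR adjusted p = 1.54e-07).

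The MX genes encode dynamin-like GTPases that trap viral particles, in human cells MX1 against influenza viruses and MX2 against retroviruses. Mouse Mx1 and Mx2 were matched to them by symbol only, which is not one-to-one orthology. MX1 was at 0.0805, 0.0755 and 0.0807 CPM in H69, 0.3102, 0.1395 and 2.24 in PD-L1 low, 8.81, 8.66 and 9.45 in H69M and 167, 172 and 145 in PD-L1 high. PD-L1 low replicate 3 held several times the MX1 of the other PD-L1 low libraries, and all 3 stayed far under H69M. The rise between the fractions was 7.81 ± 0.23, or 9.44 without that library, and the excess of PD-L1 low over H69, 3.09 ± 0.94 with edgeR adjusted p = 0.00591, dropped to 1.46 with adjusted p = 0.0606. In the HLA sort MX1 went from 0.534 and 0.534 to 73.5 and 74.6 CPM. The mouse gene overlapped between the groups, at 7.58, 4.57 and 3.73 in RPP and 11.4, 11.7 and 5.06 in RPP-A (0.83 ± 0.38, edgeR adjusted p = 0.0787). It passed the test at 1.22 without the RPP library EHK_RPP4, at 1.14 without the RPP-A library RPPM3 and at 1.52 without both. MX2 rose by 8.92 ± 0.21 in the PD-L1 sort, from 0.0443, 0.0465 and 0.289 to 51.4, 57.6 and 50.2 CPM, by 288-fold (95% counting interval 79.4 to 2385) between the HLA fractions, and by 4.08 ± 0.38 in the mouse. The first was 10.01 without PD-L1 low replicate 3, and the fitted log2 value of the second, 7.996, was 6.96 without HLA low replicate 1 and 11.15 without replicate 2.

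Genes that restrict viruses at membranes were 4 of 4 higher in the PD-L1 sort, the HLA sort, H69M and the mouse. The IFITM proteins block entry in endosomes and at the cell surface, and BST2 tethers budding particles. IFITM3 was all but absent from H69, with 1 count over the 3 libraries (0, 0.0378 and 0 CPM), and stood at 1.42, 1.49 and 2.604 in PD-L1 low, 21.9, 25.4 and 20.1 in H69M and 229.8, 249.8 and 223 in PD-L1 high. It went from 0.553 and 0.464 to 241 and 216 CPM between the HLA fractions and from 8.73, 5.33 and 3.52 to 824, 862 and 963 in the mouse. Each high group lay far above its low group. H69M exceeded H69 by 1417-fold (95% counting interval 254 to 56002), and the fitted log2 value was larger, 11.79, without H69 replicate 2, which held the count. The fitted rise was 7.07 ± 0.13 in the PD-L1 sort and 7.24 ± 0.34 in the mouse, with adjusted p of at most 8.59e-07 (edgeR).

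IFITM1 had 0 counts in H69, was at 0.222, 0.326 and 0.9402 CPM in PD-L1 low and 0.899, 2.24 and 0.8798 in H69M, and reached 60.9, 57.3 and 46.6 in PD-L1 high. The rise between the fractions was 6.97 ± 0.25, or 7.63 without PD-L1 low replicate 3. Against the floor of 3 counts over the H69 group PD-L1 low was at least 9.17-fold, H69M at least 27.3-fold and PD-L1 high at least 1186-fold higher. It went from 0.119 and 0.0464 to 27.4 and 25.7 between the HLA fractions and from 3.02, 0.485 and 0.774 to 162, 164 and 195 in the mouse. The RPP library EHK_RPP4 had the most Ifitm1, and its removal moved the rise from 6.98 to 8.14. IFITM2 stood at 0.443, 0.326 and 0.434 in PD-L1 low and 22.02, 26.5 and 25.1 in PD-L1 high, beside 0.0402, 0.0378 and 0 in H69 and 2.07, 2.29 and 2.33 in H69M. It had 0 counts in both HLA low libraries and was at 15.1 and 14.7 in HLA high, at least 467-fold higher, and went from 37.8, 35.3 and 32.7 to 346, 355 and 511 in the mouse. BST2 stood at 0, 0.0378 and 0 CPM in H69, 0.443, 0.326 and 0.434 in PD-L1 low, 1.75, 1.99 and 1.99 in H69M and 48.8, 45.8 and 41.5 in PD-L1 high. It went from 0.652 and 0.464 to 21.03 and 20.3 between the HLA fractions and from 4.65, 6.095 and 6.89 to 262, 272 and 192 in the mouse. BST2 rose by 6.82 ± 0.15, 5.18 ± 0.15 and 5.35 ± 0.21 in these 3 comparisons, with no overlap between groups. The IFITM genes are near relatives of each other, and how reads shared among them were counted is not given in the sources used here.

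Of 3 effectors that act on nucleotides and RNA, CMPK2 and RSAD2 differed in direction between comparisons. ISG20 passed the test as higher in all 4, though in the HLA sort this rested on 1 library. RSAD2 (viperin) turns a nucleotide into a chain terminator for viral polymerases, CMPK2, its neighbour on chromosome 2 in the human genome, supplies nucleotides as a kinase, and ISG20 is an exonuclease. All 3 rose in the PD-L1 sort and between the HLA fractions. In H69M against H69 ISG20 rose, CMPK2 fell and RSAD2 passed no threshold, and in the mouse Isg20 rose while Cmpk2 and Rsad2 fell. CMPK2 was at 5.03, 4.53 and 5.004 CPM in H69, 2.79, 2.37 and 3.47 in PD-L1 low, 3.596, 4.03 and 3.48 in H69M and 21.1, 17.8 and 16.3 in PD-L1 high. HLA low cells held 3.202 and 2.65 and HLA high cells 5.05 and 5.34. RPP held 68.1, 94.5 and 90.5 and RPP-A 18.8, 17.6 and 14.1 CPM, so that each RPP library had more Cmpk2 than any RPP-A library. The log2 fold change was 2.72 ± 0.13 in the PD-L1 sort, 0.82 ± 0.14 between the HLA fractions, -0.39 ± 0.15 in H69M against H69 (adjusted p = 0.0223) and -2.33 ± 0.17 in the mouse (adjusted p = 6.81e-06, edgeR). The fall in H69M did not pass the test without H69 replicate 1, H69M replicate 1 or H69M replicate 3 (adjusted p between 0.056 and 0.0802).

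RSAD2 was at 1.09, 1.32 and 1.37 CPM in H69, 2.26, 2.19 and 2.46 in PD-L1 low, 1.75, 1.84 and 1.26 in H69M and 16.2, 18.00 and 16.04 in PD-L1 high. H69 and H69M overlapped (0.36 ± 0.20, edgeR adjusted p = 0.116, or 0.53 with adjusted p = 0.0329 without H69M replicate 3). The sorts gave 2.87 ± 0.13 for PD-L1 and 3.26 ± 0.24 for HLA (0.395 and 0.255 against 3.38 and 2.95 CPM). In the mouse it fell from 50.2, 56.1 and 55.8 to 27.04, 29.04 and 16.2 CPM (-1.17 ± 0.21, edgeR adjusted p = 0.00112), and it was lower in every RPP-A library. ISG20 was low in the human cells, at 0, 0.0378 and 0 CPM in H69, 0.2697, 0.199 and 0.306 in H69M, 0.842, 0.791 and 0.651 in PD-L1 low and 2.45, 2.46 and 1.34 in PD-L1 high. Of the 44 members tested, it and RSAD2 were the 2 that passed the test as higher in PD-L1 low than in unsorted H69M. It rose by 1.46 ± 0.26 in the PD-L1 sort. The HLA high libraries disagreed, at 0.701 and 0.261 against 0.237 and 0.255 CPM in HLA low, and the rise of 1.04 ± 0.40 (edgeR adjusted p = 0.0115) came down to 0.09 without HLA high replicate 1. With all libraries this rise did not pass the DESeq2 test (1.01, adjusted p = 0.187). Mouse Isg20 went from 9.71, 6.37 and 7.52 to 20.2, 23.8 and 30.1 CPM (1.66 ± 0.21).

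Enzymes that recognise double-stranded RNA rose in 2 of 2 cases in the PD-L1 sort, the HLA sort and H69M against H69. EIF2AK2 (PKR), the kinase that stops translation, was at 40.3, 39.6 and 41.6 CPM in H69, 45.1, 44.2 and 47.8 in PD-L1 low, 56.9, 60.6 and 58.3 in H69M and 104, 124 and 113 in PD-L1 high. It went from 95.7 and 91.7 to 147 and 165 between the HLA fractions and from 18.9, 25.9 and 25.3 to 193, 194 and 169.8 in the mouse. Its mouse rise of 2.99 ± 0.14 was the largest of the 4 comparisons (1.32 in the PD-L1 sort, 0.74 between the HLA fractions and 0.54 in H69M). ADAR, which edits adenosines in such RNA, was at 338, 339.6 and 339 CPM in H69, 353, 342 and 348 in PD-L1 low, 394, 384 and 409 in H69M and 631, 621 and 593 in PD-L1 high. HLA low cells held 331 and 328 and HLA high cells 552 and 532. The human libraries of each group agreed closely, and rises of 0.82 ± 0.05, 0.72 ± 0.06 and 0.22 ± 0.05 passed the test with adjusted p of at most 0.000186 (edgeR). In the mouse the groups overlapped, at 77.6, 77.3 and 84.7 in RPP and 120.0, 124 and 81.3 in RPP-A (0.44 ± 0.16, edgeR adjusted p = 0.0368), and without the RPP library RPP1 or RPP2 or the RPP-A library RPPM1 or RPPM2 the adjusted p was between 0.0505 and 0.121. The mouse call was also lost with library totals in place of TMM (0.073, adjusted p = 0.686), at a minimum count of 100 (adjusted p = 0.0533) and with RPPM1 and RPPM2 summed (adjusted p = 0.11, edgeR).

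The ADP-ribosylation genes rose in all 4 comparisons (4 of 4 in each), and H69M and PD-L1 low held close levels of PARP9 and DTX3L. PARP9 and DTX3L form a ubiquitin ligase that sustains interferon signalling, and PARP14 and PARP12 add ADP-ribose to proteins and viral targets. PARP9 was at 0.483, 0.793 and 0.646 CPM in H69, 5.496, 4.98 and 5.57 in PD-L1 low, 6.52, 5.03 and 6.24 in H69M and 46.8, 48.98 and 47.1 in PD-L1 high. It was at 2.67 and 2.78 in HLA low and 21.1 and 22.8 in HLA high, and at 17.4, 22.3 and 23.1 in RPP and 88.2, 82.1 and 76.96 in RPP-A. DTX3L, its partner, was at 2.54, 2.79 and 2.91 CPM in H69, 10.4, 10.6 and 11.1 in PD-L1 low, 12.1, 11.7 and 11.8 in H69M and 71.7, 74.4 and 63.8 in PD-L1 high. Between the HLA fractions it went from 6.54 and 6.15 to 28.7 and 31.9, and in the mouse from 34.3, 41.1 and 38.3 to 75.4, 71.3 and 77.3. Both had already risen in PD-L1 low against H69, by 3.04 ± 0.19 and 1.97 ± 0.11, and they were the 2 members that passed no threshold between PD-L1 low and H69M (edgeR adjusted p = 0.235 and 0.115). PARP14 was at 0.765, 0.642 and 0.323 CPM in H69, 5.27, 4.93 and 6.22 in PD-L1 low, 23.4, 19.3 and 20.9 in H69M and 161, 167 and 151 in PD-L1 high. Between the HLA fractions it went from 3.54 and 3.57 to 82.1 and 94.7, and in the mouse from 5.55, 7.55 and 8.02 to 105, 102 and 64.2. Its rises of 4.89 ± 0.09, 5.07 ± 0.16 and 3.68 ± 0.24 in the PD-L1 sort, H69M and the mouse exceeded those of PARP12 (1.47, 1.40 and 1.01).

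Guanylate-binding proteins, large GTPases that coat bacteria and disrupt the vacuoles of parasites, rose in 4 of 4 cases in the PD-L1 sort, the HLA sort and H69M, and in 3 of 3 in the mouse. GBP1 was at 3.34, 4.003 and 3.79 CPM in H69, 11.3, 13.2 and 12.8 in PD-L1 low, 28.1, 29.95 and 26.9 in H69M and 108, 116 and 118 in PD-L1 high. It was at 0.791 and 1.14 in HLA low and 61.3 and 66.7 in HLA high. GBP2 was at 0.0402, 0.227 and 0.0807 CPM in H69, 0.3102, 0.326 and 0.868 in PD-L1 low, 8.36, 8.81 and 8.26 in H69M and 56.3, 56.3 and 61.7 in PD-L1 high. It went from 0.217 and 0.278 to 9.97 and 11.2 between the HLA fractions and from 2.61, 2.98 and 2.32 to 175, 181 and 181 in the mouse. The 4 groups of the H69 table did not overlap for either gene, and H69M stood well above PD-L1 low. GBP1 rose by 3.20 ± 0.07 in the PD-L1 sort and by 6.07 ± 0.12 between the HLA fractions, and GBP2 by 6.99 ± 0.16, 5.41 ± 0.20 and, in the mouse, 6.08 ± 0.12. GBP4 was lower in PD-L1 low than in H69 (0.0443, 0.0465 and 1.08 against 1.17, 1.62 and 1.45 CPM), a change of -2.23 ± 0.51 (edgeR adjusted p = 0.000575) that was -4.79 without PD-L1 low replicate 3 and -1.60 without replicate 1. It rose between the fractions by 7.55 ± 0.26, or by 10.11 and 6.90 without those libraries. GBP3 rose by 5.21 ± 0.34 in the PD-L1 sort (5.83 without PD-L1 low replicate 1) and did not pass the test between PD-L1 low and H69 (0.53 ± 0.80, edgeR adjusted p = 0.56).

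SAMD9 and SAMD9L, neighbouring paralogs that restrict poxviruses and slow cell growth, parted in H69M. SAMD9 was at 41.7, 39.2 and 38.3 CPM in H69, 10.5, 11.5 and 12.9 in PD-L1 low, 29.5, 29.6 and 29.9 in H69M and 114, 123 and 114 in PD-L1 high. It rose from 2.96 and 2.37 in HLA low to 51.6 and 60.9 in HLA high. SAMD9L was at 0.0805, 0.0755 and 0.161 CPM in H69, 0.3102, 0.233 and 1.16 in PD-L1 low, 15.8, 14.2 and 16.9 in H69M and 117, 127 and 119 in PD-L1 high. SAMD9 was thus lower in H69M and in PD-L1 low than in H69, whereas SAMD9L was higher in both. The changes in H69M against H69 were -0.43 ± 0.06 for SAMD9 (edgeR adjusted p = 7.09e-06) and 7.29 ± 0.28 for SAMD9L, and those in the PD-L1 sort were 3.34 ± 0.07 and 7.95 ± 0.17, the latter 8.77 without PD-L1 low replicate 3. SAMD9L was higher in HLA high than in HLA low by 1303-fold (95% counting interval 360.4 to 10769), at 0.0198 and 0.0232 against 26.03 and 30.2 CPM, and went from 0.489, 1.18 and 0.914 to 145, 146 and 135 in the mouse (7.32 ± 0.20). SP100 and SP110, proteins of nuclear bodies, rose by 6.30 ± 0.17 and 5.73 ± 0.24 in the PD-L1 sort and by 8.14 ± 0.24 and 5.09 ± 0.36 in the mouse. The rise of SP110 in the PD-L1 sort was 6.36 without PD-L1 low replicate 2. SP100 had 1 count over both HLA low libraries and was 3063-fold (95% counting interval 549 to 121026) higher in HLA high, with a fitted log2 value of 11.25, or 10.30 and 13.57 without HLA low replicate 1 or 2. Neither SP gene passed the test between PD-L1 low and H69 (edgeR adjusted p = 0.157 and 0.111).

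The IFI genes, induced proteins with less settled functions, rose 5 of 5 in the PD-L1 sort, the HLA sort and H69M, and 3 of 3 tested in the mouse. IFI44L had 0 counts in H69 and in HLA low, was at 0.0886, 0 and 1.52 CPM in PD-L1 low, 8.81, 10.2 and 8.57 in H69M and 134, 143 and 139 in PD-L1 high, and at 47.04 and 50.8 in HLA high. Against the floor of 3 counts over the low group it was at least 194-fold higher in H69M, at least 2941-fold in PD-L1 high and at least 1521-fold in HLA high. Its PD-L1 low libraries ran from 0 to the level of replicate 3, and the rise between the fractions, 8.42 ± 0.27, was 11.40 without that replicate, 7.80 without replicate 1 and 7.75 without replicate 2. Mouse Ifi44l had 8 counts in all and was not tested. IFI44, its paralog, had 0 counts in H69 and in RPP and stood at 0, 0 and 0.506 CPM in PD-L1 low, 4.23, 4.53 and 4.59 in H69M, 46.3, 54.01 and 47.97 in PD-L1 high and 139, 135 and 116 in RPP-A, which is at least 1769.5-fold above RPP. It rose by 8.60 ± 0.27 in the PD-L1 sort, by 13.01 without PD-L1 low replicate 3, the only library of the fraction with a count of it, and by 7.88 and 7.96 without replicates 1 and 2.

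IFI27, a mitochondrial protein tied to cell death, was at 0.0402, 0.151 and 0 CPM in H69, 0.665, 0.977 and 1.52 in PD-L1 low, 3.96, 4.38 and 3.099 in H69M and 92.6, 69.7 and 63.3 in PD-L1 high. In HLA low it was at 0.474 and 0.673 and in HLA high at 29.98 and 26.1. The mouse gene went from 27.8, 33.3 and 37.2 to 54.5, 61.9 and 72.2 CPM (0.94 ± 0.15), beside rises of 6.25 ± 0.20 and 5.63 ± 0.14 in the sorts. IFI6, which protects mitochondria and blocks flavivirus replication, was at 2.82, 3.25 and 2.99 CPM in H69, 6.25, 4.47 and 6.58 in PD-L1 low, 19.9, 24.4 and 16.7 in H69M and 191, 181 and 158 in PD-L1 high. HLA low held 1.25 and 1.32 and HLA high 82.9 and 67.1. These groups did not overlap, and the sorts gave rises of 4.96 ± 0.13 and 5.87 ± 0.11. IFI35 rose by 2.30 ± 0.10, 1.28 ± 0.10 and 1.69 ± 0.14 in the PD-L1 sort, the HLA sort and the mouse.

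XAF1, which promotes cell death by opposing an inhibitor of caspases, had the largest fitted rise of the PD-L1 sort with all libraries, a rank that passed to IFI44 (13.01) and IFI44L (11.40) without PD-L1 low replicate 3. XAF1 was at 0, 0 and 0 CPM in H69, 0, 0.0465 and 0 in PD-L1 low, with 1 count over the group, 4.18, 4.38 and 3.56 in H69M and 44.1, 54.5 and 56.2 in PD-L1 high. PD-L1 high exceeded PD-L1 low by 2950.4-fold (95% counting interval 529 to 116576), with a fitted log2 value of 11.10, or 13.02 without PD-L1 low replicate 2, which held the count, 10.51 without replicate 1 and 10.81 without replicate 3. HLA high (12.2 and 13.1 CPM) exceeded HLA low, with 0 counts, at least 392-fold, and the mouse gene went from 0.816, 2.22 and 1.899 to 67.7, 70.9 and 66.6 (5.35 ± 0.24). LGALS3BP, a secreted glycoprotein, was at 169, 171 and 179 CPM in H69, 232, 211 and 229 in PD-L1 low, 245, 274 and 265 in H69M and 624, 604 and 562 in PD-L1 high. The HLA fractions held 104 and 102 (low) and 344 and 313 (high). It rose by 1.41 ± 0.06 and 1.67 ± 0.06 in the sorts, and in the mouse it went from 4.81, 6.995 and 7.24 to 519, 529 and 491 CPM (6.33 ± 0.18). TRIM21, the antibody receptor of the cytosol, rose by 4.77 ± 0.20 in the PD-L1 sort, PLSCR1, a membrane scramblase, by 2.66 ± 0.07, and LAP3, an aminopeptidase, by 0.68 ± 0.07. EPSTI1 ran against the list. It was at 0.322, 0.151 and 0 CPM in H69, 0.135, 0.249 and 0.191 in H69M, 0.532, 0.605 and 0.362 in PD-L1 low and 0.0979, 0.107 and 0.141 in PD-L1 high, highest in PD-L1 low, and was too low to be tested there. HLA low held 0.553 and 0.487 and HLA high 0.661 and 0.678 CPM (0.35 ± 0.31, edgeR adjusted p = 0.29). Mouse Epsti1 went from 1.305, 2.63 and 2.25 to 0.407, 0.746 and 1.19 (-1.39 ± 0.42, edgeR adjusted p = 0.0165), a fall that did not pass the test without any 1 of RPP1, RPP2, RPPM1 and RPPM2 (adjusted p between 0.0513 and 0.067).

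Within the H69 table most members fell into the same order. In 32 of 45 the group means rose from H69 to PD-L1 low, H69M and PD-L1 high, and 43 were highest in PD-L1 high, the others being USP18, highest in H69, and EPSTI1, highest in PD-L1 low. H69M is the unsorted source of both fractions, so a mean between theirs says little by itself. Some steps from H69 to PD-L1 low rest on few counts, as for XAF1 (0 and 1) and HERC6 (3 and 6). The share of all genes in this order is not given here. H69 was lowest for 34 members and PD-L1 low for 10. As a percentage of the PD-L1 high mean, the median member stood at 1.34% in H69, 3.27% in PD-L1 low and 14.6% in H69M. PD-L1 low against H69 gave 27 members higher, against 39.0% of all genes, 7 lower, against 36.9%, and 10 neither, with a median of 1.52 (0.02 over all genes). Some of these members passed the filter on low counts only through libraries of the other groups. In a fit of only H69 and PD-L1 low, 26 members were tested, 16 rose and 7 fell, and the median was 0.77. Of 14653 genes tested in that fit 11099 were called, and 50.1% of those were higher. With all groups fitted, the 7 that fell were GBP4, IFIT1, SAMD9, IFIT5, USP18, CMPK2 (-0.78 ± 0.16) and TRIM25 (-0.21 ± 0.06). The fall of TRIM25 did not pass with library totals in place of TMM (-0.11, edgeR adjusted p = 0.0617). The largest fitted rises were those of IFITM3, at 110.1-fold (95% counting interval 19.3 to 4390.4), IFITM1 and IFI44L, at least 8.44-fold. XAF1, MX2, SP110, HERC6, SP100, GBP3, ADAR, LAP3, IFIT2 and HERC5 passed no threshold. Without PD-L1 low replicate 3 the counts were 22 higher and 8 lower: IFIT3, IFI44, IFI44L, MX1, TRIM21 and EIF2AK2 no longer passed the test, EPSTI1, not tested with all libraries, was tested and higher, and HERC5 was then lower (-2.64, edgeR adjusted p = 0.0344). Without H69 replicate 2, SP110 (3.00) and MX2 (4.12) were higher in PD-L1 low and the fitted value of IFITM3 went from 6.32 to 8.10, and IFI44 did not pass with any 1 of the H69 libraries left out (edgeR adjusted p between 0.0565 and 0.0932).

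**Figure D3:**
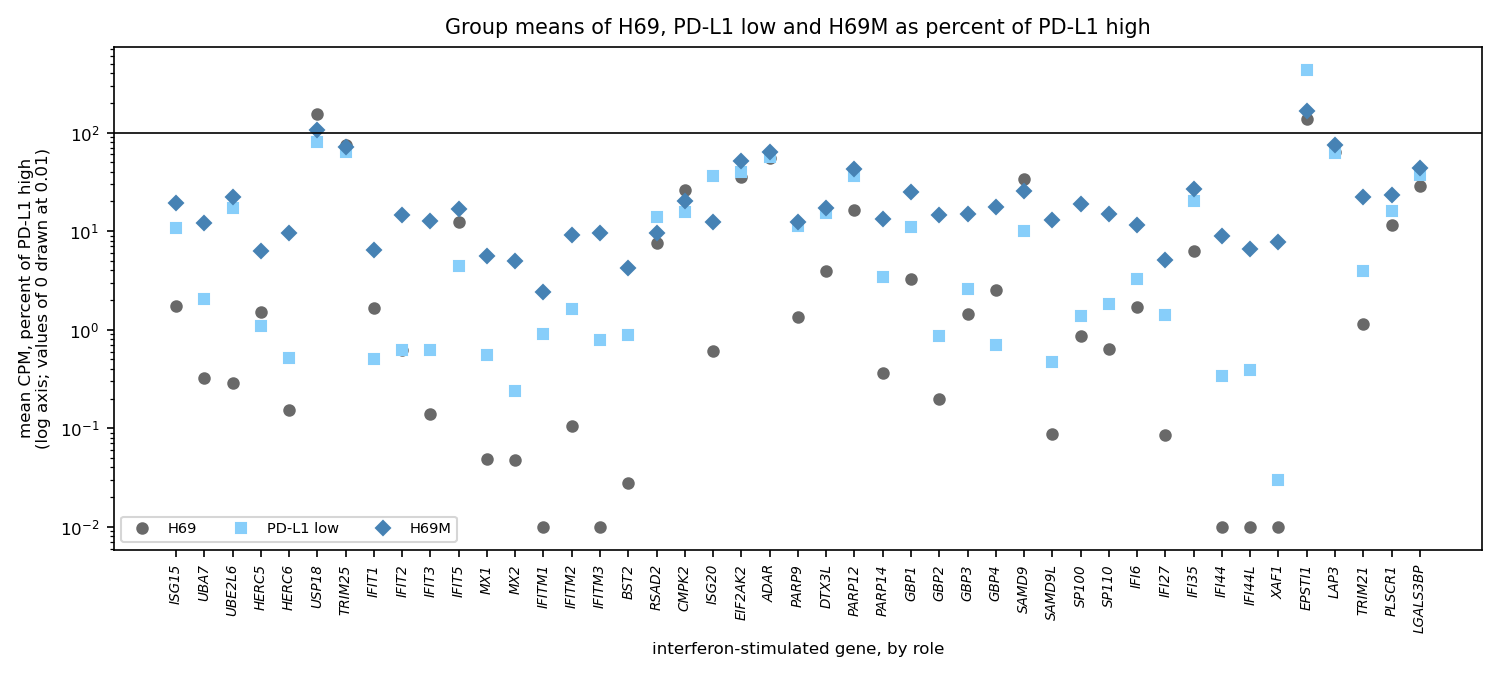
Group mean CPM of each member in H69 (circles), PD-L1 low (squares) and H69M (diamonds) as a percentage of its mean in PD-L1 high (log axis, with 0 drawn at 0.01), by role, and a line at 100%. The order from circle to square to diamond holds for 32 of 45 members, and points above the line belong to USP18 and EPSTI1.

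Unsorted H69M shares its libraries with several of these comparisons, and so do H69 and both fractions, so the counts here are not independent of those above. PD-L1 high against H69 gave 43 higher, against 38.1% of all genes, and USP18 lower (-0.61 ± 0.07), where 39.5% of all genes fell, with a median of 6.23. PD-L1 high against unsorted H69M gave 43 higher, against 37.8% of all genes, and USP18 neither (-0.09 ± 0.07, edgeR adjusted p = 0.286), with a median of 2.78. The largest fitted rises over H69M were those of IFITM1 (5.41 ± 0.20), BST2 (4.57 ± 0.11) and MX2 (4.34 ± 0.12). PD-L1 low against H69M gave 40 lower, against 33.0% of all genes, and 2 higher, against 32.6%, with a median of -1.99. Those 2 were ISG20 (1.54 ± 0.39) and RSAD2 (0.52 ± 0.18, edgeR adjusted p = 0.0174), and RSAD2 did not pass the test without H69M replicate 3 (adjusted p = 0.138). The deepest fitted fall with all libraries was that of XAF1, lower in PD-L1 low by 232-fold (95% counting interval 41.2 to 9181), with a fitted log2 value of -7.42, or -9.34 without PD-L1 low replicate 2. Without PD-L1 low replicate 3 XAF1 was at -7.13, and IFI44 (-9.54), GBP4 (-7.59) and IFI44L (-7.48) lay below it.

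Transcripts of the 10 interferon genes examined were almost absent. Of the IFNA family only IFNA1 and IFNA2 were among them. Of 10 ligand genes, IFNE, the epithelial interferon epsilon, was the one that was tested in the human tables. It was at 1.29 ± 0.611 CPM (mean ± SD, n = 3) in PD-L1 high and 0 in PD-L1 low, at least 23.5-fold higher. It was at 0.804 ± 0.00492 (n = 2) in HLA high and 0 in HLA low, at least 25.1-fold higher, and at 0.0998 ± 0.0445 in H69M and 0 in H69. The summed level of all 10 ligands was under 0.30 CPM in each library of H69, H69M, PD-L1 low and HLA low, and reached 0.881 to 2.32 in PD-L1 high and 0.921 to 0.938 in HLA high. In the mouse 8 ligands had a row, none was tested, and their sum was 0 in RPP and 0.0574 to 0.136 in RPP-A.

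Receptor genes rose in 5 of 6 cases in the PD-L1 sort (39.0% of all genes), 5 of 6 between the HLA fractions (41.1%), 5 of 6 in the mouse (37.6%) and 4 of 6 in H69M (35.9%). IFNAR2, the signalling chain of the type I receptor, rose by 0.92 ± 0.06 in the PD-L1 sort, 1.63 ± 0.08 between the HLA fractions, 0.95 ± 0.07 in H69M and 4.22 ± 0.13 in the mouse, where it went from 8.87 ± 0.282 to 165 ± 20.8 CPM. IL10RB, shared by the receptors for interferon lambda and interleukin-10, rose by 1.16 ± 0.06 in the PD-L1 sort, and Ifngr2, of the interferon gamma receptor, by 3.12 ± 0.20 in the mouse. IFNLR1, the specific chain for interferon lambda, went against the others: -0.67 ± 0.07 in the PD-L1 sort, -0.55 ± 0.07 in H69M and -4.20 ± 0.31 in the mouse, with adjusted p of at most 7.89e-06 (edgeR). It was at 0.12 ± 0.08 between the HLA fractions (adjusted p = 0.173).

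Of the JAK, STAT and IRF genes 10 of 11 tested rose and 1 fell in the PD-L1 sort, and 9 of 11 rose and 1 fell between the HLA fractions, where 39.0% and 41.1% of all genes rose. In the mouse 8 of 12 rose, against 37.6% of all genes, and 2 fell. In H69M 5 of 11 rose and 3 fell, a split near that of all genes (35.9% and 36.6%). IRF9, the DNA-binding subunit of ISGF3, was at 63.7 ± 3.46 CPM in PD-L1 high and 6.33 ± 0.343 in PD-L1 low, a rise of 3.34 ± 0.11, and STAT2 rose by 1.90 ± 0.08. JAK2, the kinase of the interferon gamma receptor, rose by 2.33 ± 0.11 in the same sort. Between the HLA fractions JAK1 (1.75 ± 0.07), JAK2 (1.53 ± 0.08) and IRF9 (1.33 ± 0.08) rose. In H69M against H69 IRF9 rose by 0.62 ± 0.11, and STAT2 passed no threshold (0.16 ± 0.08, edgeR adjusted p = 0.0792). TYK2 fell there (-0.89 ± 0.07), and the largest rise was that of IRF2 (1.95 ± 0.10), which can repress interferon targets. In the mouse Irf7, the factor that amplifies type I interferon, went from 3.19 ± 0.927 to 135 ± 30.8 CPM (5.39 ± 0.26), Irf9 rose by 2.80 ± 0.10, and Irf8 fell (-2.70 ± 0.47). IRF3 fell in the PD-L1 sort (-0.29 ± 0.06), the HLA sort (-0.25 ± 0.07) and the mouse (-0.30 ± 0.09). Among the inhibitors, the feedback genes SOCS1 and SOCS3 rose by 2.56 ± 0.14 and 2.22 ± 0.09 in the PD-L1 sort, 1.42 ± 0.12 and 1.42 ± 0.09 between the HLA fractions and 3.05 ± 0.20 and 2.07 ± 0.09 in the mouse. The phosphatase gene PTPN6 fell in all 3 (-1.67 ± 0.10, -1.45 ± 0.23 and -2.35 ± 0.27).

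Sort markers and cell type markers did not all move alike. Most fibroblast and stromal genes rose in the comparisons where most interferon-stimulated genes rose. The neuroendocrine sum fell in both sorts and in the mouse, while that of H69M overlapped that of H69. CD274, which encodes PD-L1, was at 13.3 ± 0.424 CPM in PD-L1 high and 0.265 ± 0.152 in PD-L1 low. HLA-B was at 78.2 ± 3.996 in H69M and 1.73 ± 0.465 in H69, and at 30.4 ± 2.89 in HLA high and 0.325 ± 0.09903 in HLA low. B2m was at 2071 ± 468 in RPP-A and 68.2 ± 4.296 in RPP. The mouse heavy chain genes differed by less, H2-K1 at 418 ± 56.2 in RPP-A and 119 ± 12.9 in RPP, and H2-D1 at 212 ± 15.3 and 67.2 ± 3.60. Each of these lay on the side its label gives. Mouse Cd274 was lower in RPP-A, at 4.96 against 31.5 CPM. The summed level of 8 neuroendocrine genes, typical of this cancer, was 2860 to 3037 CPM in H69, 4030 to 4261 in PD-L1 low, 2812 to 2890.2 in H69M and 1100.2 to 1156 in PD-L1 high. It was 1941 to 1958 in HLA low and 558 to 580.3 in HLA high, and 2354 to 2903 in RPP against 151 to 191 in RPP-A. Between the PD-L1 fractions 8 of 8 fell, against 39.4% of all genes. Between the HLA fractions 6 of 7 fell, against 40.2%, and in the mouse 8 of 8, against 40.6%. The 9 fibroblast and stromal genes summed to 269.9 to 367 CPM in PD-L1 low, with replicate 3 the highest, 2521 to 2811 in H69M and 11210 to 11503 in PD-L1 high, beside 155.5 to 156.4 in H69. Their sum was 109 to 113 in HLA low and 16384 to 17816 in HLA high. It was 88.3 to 461 in RPP, with EHK_RPP4 the highest, and 23073 to 30852 in RPP-A. Of these, 8 of 9 rose in the PD-L1 sort, the HLA sort and the mouse, where 39.0%, 41.1% and 37.6% of all genes rose. In H69M 9 of 9 rose, against 35.9% of all genes. The 10 leukocyte genes summed to between 1.77 and 5.63 CPM in every human library, with CD3E, CD3D, MS4A1 and FCGR3A at 0 counts. In the mouse 8 of them reached at most 1.305 CPM in RPP and lay between 32.7 and 36.5 in RPP-A, nearly all of it Cd14 at 32.2 ± 1.902 CPM, while Ptprc, the pan-leukocyte marker, had 0 counts in RPP-A. The plasmacytoid dendritic genes CLEC4C and IL3RA were at 0 counts in the human libraries, and mouse Il3ra was at 36.97 ± 0.9104 CPM in RPP-A and 1.35 ± 0.594 in RPP. The endothelial genes (4 in the H69 and mouse tables, 3 in that of H69EZ) summed to at most 6.05 CPM in the human libraries. Their mouse sum ran from 39.5 to 46.8 CPM in RPP cells, above the 2.12 to 3.33 of RPP-A. Nearly all of the RPP sum was Vwf, at 41.5 ± 3.14 CPM in RPP and 1.29 ± 0.339 in RPP-A. Pecam1 was at 0.640 ± 0.524 in RPP and 0.989 ± 0.141 in RPP-A. The part of these changes in the rises of the interferon-stimulated genes was not tested.

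**Figure D4:**
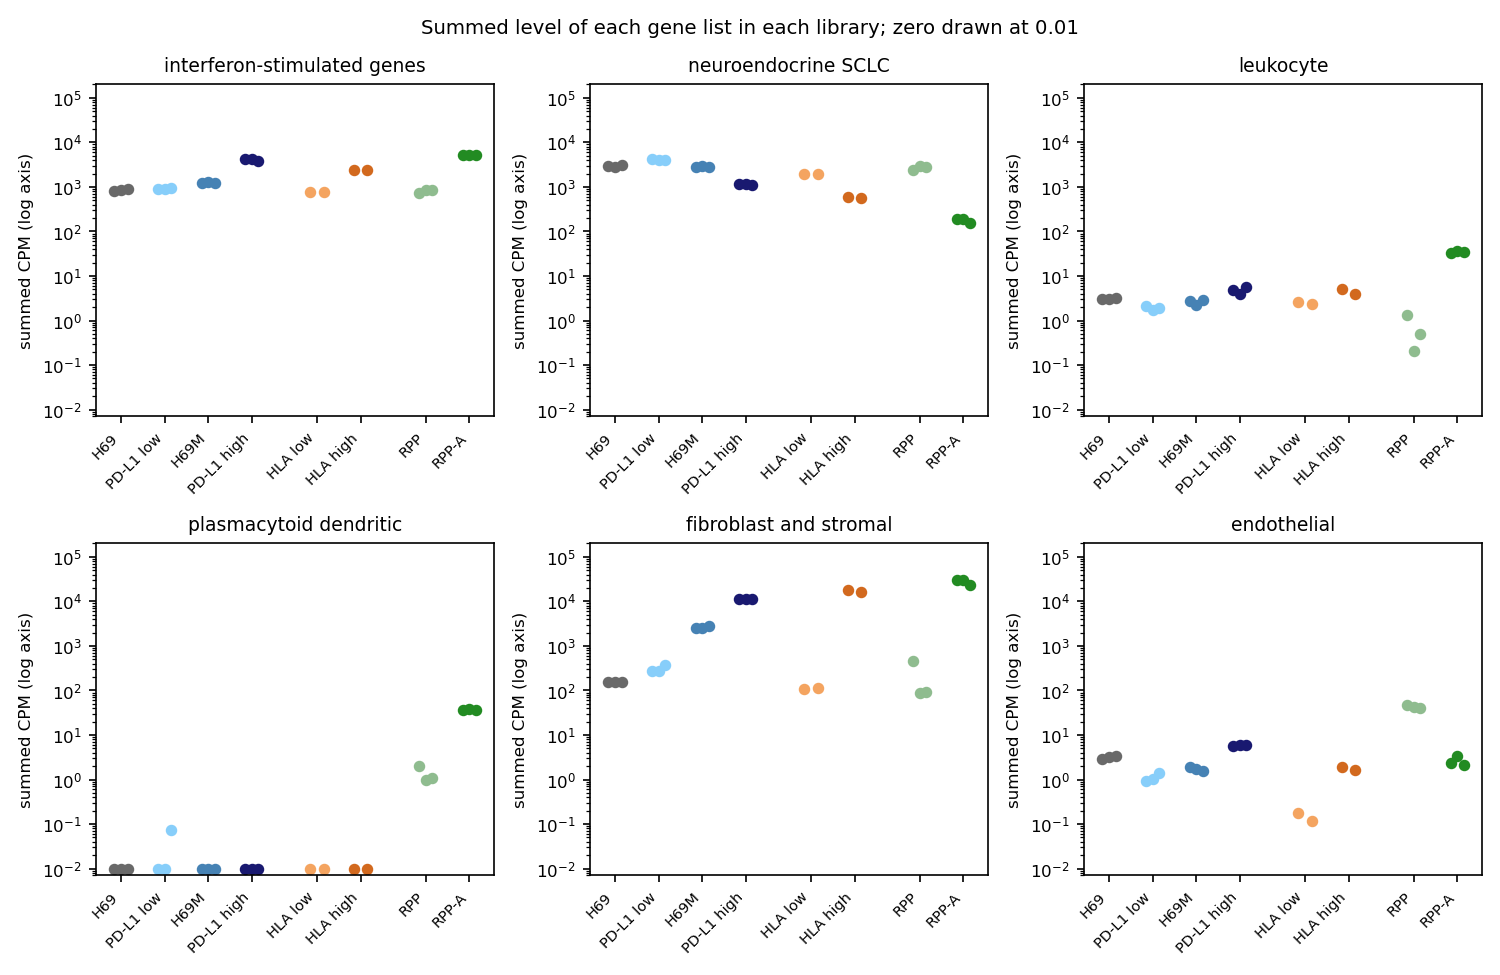
Summed CPM (log axis, 0 drawn at 0.01) of the interferon-stimulated genes and of 5 lists of cell type markers in each library, by group, with 1 point per library. The interferon-stimulated sum goes from 883 to 940.0 in PD-L1 low to 3863 to 4196 in PD-L1 high, the fibroblast and stromal sum rises and the neuroendocrine sum falls in the same libraries, and the leukocyte sum stays under 6 in every human library. Members with many counts weigh most in the first sum, so its rise is not that of the median member. ADAR, LGALS3BP and TRIM25 averaged 348, 224 and 111 CPM in PD-L1 low and 615, 597 and 174 in PD-L1 high.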

How the data were processed

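Exome-capture RNA libraries were sequenced on cell lines, and the deposited values are raw read counts per gene in 3 tables, made by the authors. STAR 2.6.1 and the builds hg19 and mm10 are named per the submitters' processing notes; the sources used here do not state the counting program, its annotation, its use of strand or its handling of shared reads. RNA input was 250 ng, per the labels' protocols. Human columns were matched to samples by name, and mouse columns to groups only: RPPM is not in the labels and was taken as RPP-A, as the only other name in that table. All mapped columns were used.

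Counts were analysed in R 4.3.3 with edgeR 4.0.16: filterByExpr (minimum count 10), TMM, 1 coefficient per group, glmQLFit and glmQLFTest, Benjamini-Hochberg adjustment over all genes of a table and a threshold of 0.05. The tests used 15445, 14819 and 14032 genes in the H69, H69EZ and mouse tables. The common biological coefficient of variation was 0.0540 in the H69 table, 0.0450 in the H69EZ table and 0.157 in the mouse table. The fit was tested on simulated data. The SE of a log2 fold change is its size divided by the root of F. A fold against a group with 0 counts is set against a floor of 3 counts over the group, and with 1 to 3 counts the count ratio has an exact binomial 95% interval. Intervals and floors cover counting error only.

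Values per library are given for a panel of members, for the largest rises, and for members that fell or passed no threshold, and signalling genes were taken from called genes by size of change. Promoter windows came from RefSeq (GRCh38.p14). Mouse members were matched by symbol, which is not one-to-one orthology. The members and lists were chosen with earlier results of these data known.

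The alternatives were a replicate block, no filter, a stricter count of 100, size factors and the test of DESeq2 1.42.0, library totals without TMM, limma-voom (limma 3.58.1), a fit of only the groups compared, each library left out, mitochondrial genes left out, Rn45s left out, and RPPM1 and RPPM2 summed. Leaving out EHK_RPP4 and RPPM3 together was chosen after seeing the data. Same-numbered libraries did not vary together: correlations of their deviations from the group means ran from -0.32 to 0.23 over 18 pairs in the H69 table, so the numbers were not taken to pair samples. The values of 1 gene of the JAK, STAT and IRF list are not reported here.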

Additional observations from a re-analysis of the deposited data

Results flagged for a closer look

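For 5 members the log2 fold change had opposite directions in comparisons of the same kind, with every library of the high group on one side of every library of the low group. The differences between comparisons were not tested. How many of all genes had such opposite directions is not given here, so the count does not set these members apart from other genes. USP18, the ISG15 protease, was at -0.52 in H69M against H69, 0.31 between the PD-L1 fractions, -0.93 between the HLA fractions and 1.74 in RPP-A against RPP. CMPK2, the nucleotide kinase, was at -0.39, 2.72, 0.82 and -2.33 in the same 4 comparisons. The first of these did not pass the test without H69 replicate 1, H69M replicate 1 or H69M replicate 3. RSAD2, the genomic neighbour of CMPK2, was at 2.87 between the PD-L1 fractions, 3.26 between the HLA fractions and -1.17 in the mouse. SAMD9, the growth and poxvirus restriction factor, was at -0.43 in H69M, 3.34 between the PD-L1 fractions and 4.39 between the HLA fractions. EPSTI1 was at 0.35 between the HLA fractions and -1.39 in the mouse, and the first of these did not pass the test. The second did not pass it without any 1 of RPP1, RPP2, RPPM1 and RPPM2.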

How the results depend on the processing

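The number of members that rose stayed within 1.5 times its main value under every alternative run for H69M against H69, the PD-L1 sort, the HLA sort, the mouse cells and PD-L1 high against H69 or H69M. With each library left out it ran from 39 to 40 in H69M against H69, from 42 to 43 between the HLA fractions and from 34 to 36 in the mouse, and it was 44 in the PD-L1 sort. In PD-L1 low against H69 it ran from 22 to 28, and it was 16 in a fit of only these groups, where 26 members were tested. PD-L1 low against H69M had 1 member higher at a minimum count of 100. Without the filter on low counts 1 member (EPSTI1) was lower in the PD-L1 sort, and from 0 to 1 with each library left out. With library totals in place of TMM 1 member (USP18, -0.17) was lower in PD-L1 high against H69M. That scaling moved the median of all genes by -0.14 in the PD-L1 sort, -0.15 between the HLA fractions, -0.40 in the mouse and 0.12 in PD-L1 low against H69, and the share of called genes that were higher went from 48.1% to 35.2% in the mouse.

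Changes of sign were found for members that did not pass the test. In PD-L1 low against H69, LAP3 was at 0.038 with a minimum count of 100 and 0.081 with library totals, and IFIT2 at 0.039 with library totals. With each library left out LAP3 ran from -0.076 to 0.046, IFIT2 from -0.51 to 0.59, HERC6 from -0.89 to 1.78 and GBP3 from -0.12 to 1.27, and TRIM25 in H69M against H69 ran from -0.11 to 0.0066.

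A replicate block left 26 members higher in PD-L1 low against H69, where IFI44 was lost (edgeR adjusted p = 0.0521), and moved no other count of members; the numbers do not pair the samples. No paired analysis was possible for the mouse because the numbers in its column names do not match the replicate numbers of the labels. Depth limits the members near 0 in H69, PD-L1 low or HLA low, whose folds rest on a few counts.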
